A study of Homo sapiens with 8 samples.

Results

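Cells that meet misfolded protein, amino acid shortage, viral RNA or mitochondrial damage slow protein synthesis by phosphorylating the translation initiation factor eIF2α. The RNA levels of 10 genes that set this phosphorylation were examined, out of 60617 genes listed: the eIF2α kinases EIF2AK1 (HRI), EIF2AK2 (PKR), EIF2AK3 (PERK) and EIF2AK4 (GCN2), the mitochondrial relay genes DELE1 and OMA1, the constitutive phosphatase subunit PPP1R15B, the GCN2 regulators GCN1 and IMPACT, and the kinase inhibitor DNAJC3. They were picked by name for their roles, with earlier results of these libraries known, and all 10 were among the 17693 genes with enough reads to test. The libraries came from MCF-10A, an established line of human mammary epithelium that does not form tumours, grown with horse serum, EGF, hydrocortisone, insulin and cholera toxin. Poly(A) RNA was sequenced from 4 groups with 2 libraries each: Empty cells left untreated, Empty cells given 1 µM JG-98 for 12 h, NeuT cells left untreated, and NeuT cells given 1 µM JG-98 for 12 h. JG-98 is an inhibitor of the chaperone Hsp70, and the study asked about the sensitivity of transformed cells to it. It is not spelled out in the labels what Empty and NeuT cells carry, which promoter drives it, or whether either is 1 clone, so the introduced sequence and any other difference between the 2 lines cannot be told apart. They also do not say that the replicates were separate cultures, so p-values measure the spread between these libraries, which may be technical.

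Each eIF2α kinase answers to a different signal. HRI responds to heme shortage and to cytosolic and mitochondrial stress, PKR to double-stranded RNA, PERK to unfolded protein in the endoplasmic reticulum (ER), and GCN2 to uncharged tRNA and stalled ribosomes. In mitochondrial stress the protease OMA1 cleaves DELE1, which then reaches the cytosol and activates HRI. Phosphorylated eIF2α lowers general translation while favouring that of ATF4, a transcription factor that raises DDIT3 (CHOP), PSAT1 and other stress genes. These kinases and relays are controlled largely at the protein level, and RNA levels do not measure their activity.

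Total counts ran from 37341458 in treated Empty replicate 1 to 56861971, with the other 7 libraries at 55050996 or more. The treated NeuT replicates stood furthest apart, with a chi-square per gene of 22.1 against 4.52 to 8.20 in the other groups, and both the NeuT drug comparison and the comparison of treated lines rest on them. Values are given as CPM, a gene's count relative to its library's size with TMM scaling (edgeR's correction for library composition), or, between genes, as RPKM, which is CPM per kilobase of exon. All 6 basal epithelial markers were tested, and their summed level was 15192 to 16810 CPM, mostly through the keratins KRT5, KRT14 and KRT17. These keratins of the labelled cell type were thus present, while TP63 was low, with group means of 2.74 to 8.48 CPM. Of the leukocyte markers 0 of 3 had enough reads to test, with sums of 0 to 0.0740 CPM. The 3 fibroblast markers summed to 8.25 to 9.45 CPM in the Empty libraries and 68.1 to 82.7 CPM in the NeuT libraries, mostly through DCN (decorin), and COL1A1 and PDGFRB were not called between lines. The 2 endothelial markers summed to 8.14 to 15.0 CPM. Both were called between untreated lines, PECAM1 lower in NeuT at -0.46 and CDH5 higher at 2.22 (0.459 against 0.0966 CPM), and 5 of the 6 basal markers were called, 4 higher and 1 lower, where 42.0% of all genes were called. Under JG-98 both endothelial and all 6 basal markers were called between lines, where 41.7% of all genes were. Of the luminal hormone receptors, PGR had too few reads to test, and the list summed to 11.3 to 15.0 CPM. ESR1 was called lower in NeuT under JG-98 (-0.30, adjusted p 0.0141, edgeR) but not without drug. In bulk RNA, fewer cells of a type and less RNA per cell cannot be told apart, and the part of these markers in the differences between lines below was not tested.

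The promoters were searched for 3 response elements. In the RefSeq table (GRCh38.p14, 250 bases before to 50 bases after each start), 9 of the 10 genes were present. EIF2AK1 was not matched. The amino acid response element core, TGATGNAA, at which ATF4 dimers bind, was found in 3.62% of the 35116 windows. Among the 9 genes it was found in PPP1R15B, and among 13 matched target genes of the pathway in 4 (ASNS, ATF3, CEBPG and CHAC1). An interferon-stimulated response element core (GAAA, any 2 bases, GAAA) was in 3.57% of windows and, of the 9 genes, in EIF2AK2, a known interferon-induced gene. The ER stress element (CCAAT, any 9 bases, CCACG) was in 0.0769% of windows and in 0 of the 9. Both strands were searched, and the motifs do not overlap one another in these genes. A match is a description of letters and not a shown binding site. The stretches around the 2 matches are printed as the matches found among these genes, with the match in capitals, 5′ to 3′ on the gene's strand. The PPP1R15B stretch lies at chr1:204411992-204412059, minus strand, with the match 227 to 220 bases before the start. The EIF2AK2 stretch lies at chr2:37156967-37156996, minus strand, with the match running across the start.
PPP1R15B: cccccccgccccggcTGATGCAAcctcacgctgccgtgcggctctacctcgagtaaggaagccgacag
EIF2AK2: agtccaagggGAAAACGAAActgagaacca

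None of the 10 genes passed the test for a change with JG-98 in either line. In Empty cells 0 of 10 were called at an adjusted p under 0.05 (edgeR quasi-likelihood test, Benjamini-Hochberg over 17693 genes), where 0.339% of all genes were (0.260% higher and 0.0791% lower). In NeuT cells 0 of 10 were called, where 3.01% of all genes were (2.01% higher and 1.01% lower). Log2 changes ran from -0.16 to 0.12 in Empty, with a median of -0.04, and from -0.08 to 0.17 in NeuT, with a median of 0.05. The medians over all genes were -0.00334 and 0.000213. Each gene has its own 95% interval. The lowest and highest bounds over the 10 were -0.32 and 0.28 in Empty and -0.20 and 0.41 in NeuT, and well-expressed genes were bounded more closely, as EIF2AK1 was in Empty (-0.11 to 0.13). At an unadjusted p under 0.05 there were 3 genes in Empty (EIF2AK2, GCN1 and DNAJC3) and 2 in NeuT (DELE1 and IMPACT). The share of all genes at that looser cut-off was not computed, so these counts cannot be read as an excess. DESeq2 and limma-voom also called 0 of 10 in both lines, as did every other setting tried. The authors' deposited table for each line had 0 of the 10 at an adjusted p under 0.05, the smallest being 0.434 for DNAJC3 in Empty and 0.241 for DELE1 in NeuT.

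The difference between the 2 drug responses was tested as an interaction, where 0 of 10 were called and 0.00565% of all genes were. The smallest unadjusted p was that of EIF2AK2, at an interaction of -0.19 (adjusted p 0.595 by edgeR). Both drug comparisons and both line comparisons draw on the same 8 libraries and share groups, so their values are given side by side and not as independent evidence.

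**Figure D1:**
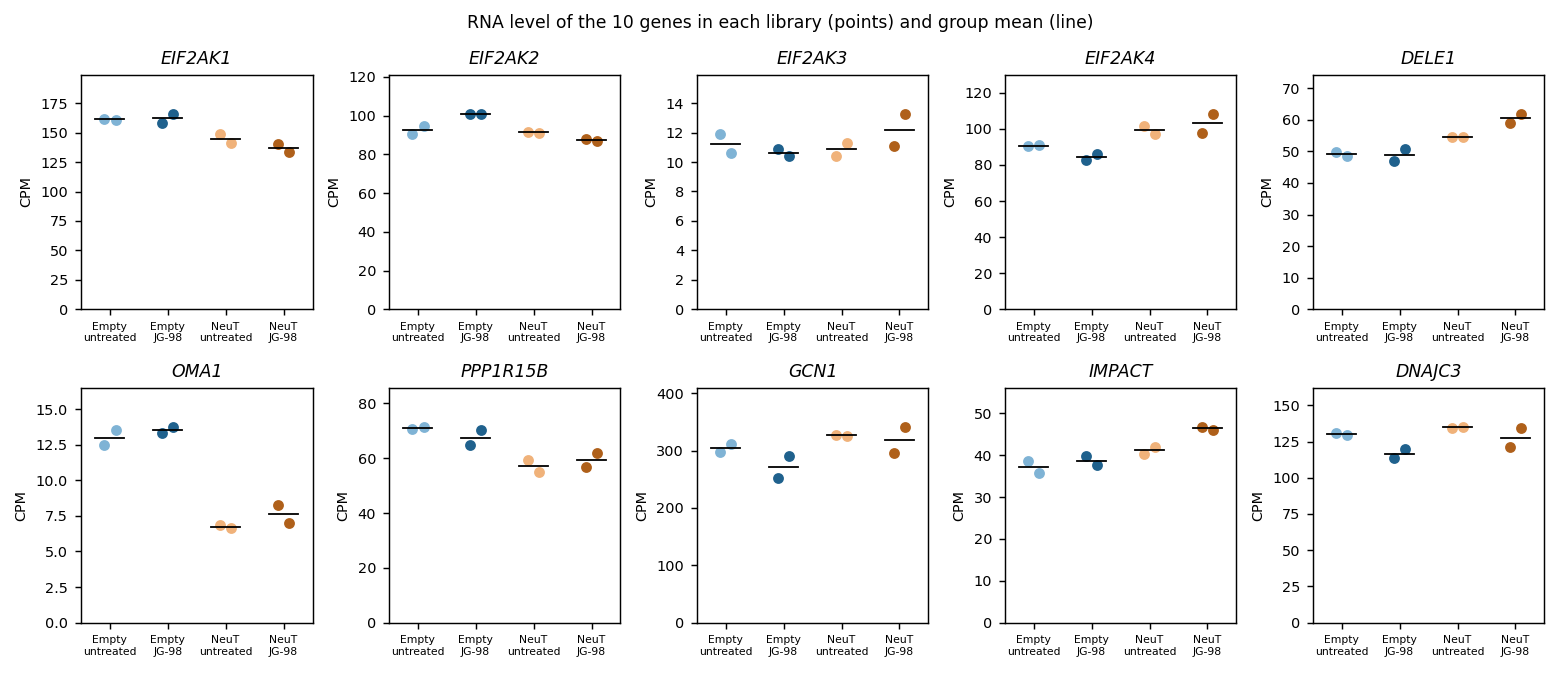
RNA level (CPM, each axis from 0) of the 10 genes in every library (points) with the group mean (line), by line and treatment. OMA1 lies at 12.5 to 13.8 CPM in the 4 Empty libraries and at 6.63 to 8.23 CPM in the 4 NeuT libraries, while the other genes differ far less.

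The lines themselves differed for some of the genes. Without drug, 3 of 10 were called between NeuT and Empty, all lower in NeuT: EIF2AK1, OMA1 and PPP1R15B. Of all genes 42.0% were called in this comparison, with 20.8% called lower and 21.2% higher. Under JG-98, 8 of 10 were called, where 41.7% of all genes were, 21.7% higher and 20.0% lower: EIF2AK1, EIF2AK2, OMA1 and PPP1R15B lower in NeuT, and EIF2AK4, DELE1, GCN1 and IMPACT higher. Since no interaction passed the test, the larger count under JG-98 does not show that the drug altered the difference between lines. The untreated count was 1 without untreated NeuT replicate 2, 6 without either treated NeuT library (3 higher and 3 lower) and 7 when only the 4 untreated libraries were fitted (4 higher and 3 lower). The calls added in these fits were all higher in NeuT. With total counts in place of TMM, 40.7% of called genes were higher in NeuT without drug, against 50.5%, and 41.0% against 52.0% under JG-98.

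**Figure D2:**
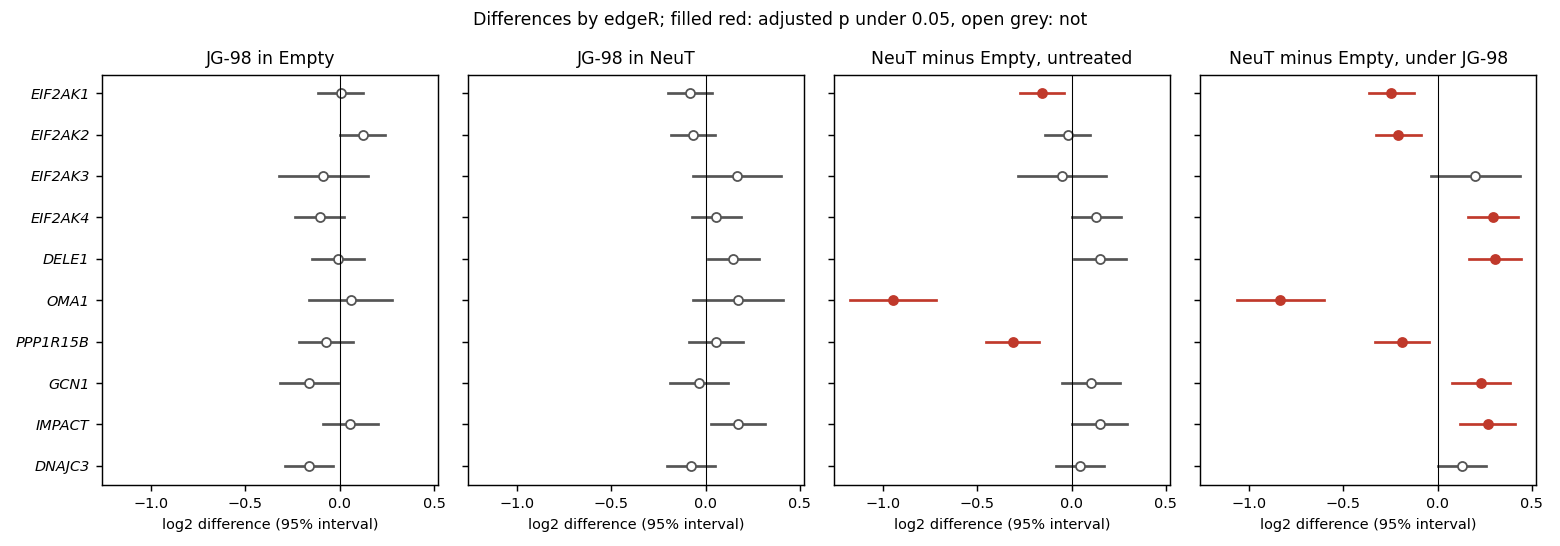
Log2 differences of the 10 genes with 95% intervals, for JG-98 in each line and for NeuT minus Empty without and with JG-98. Filled red points passed an adjusted p under 0.05: 0 for the drug in either line, 3 between untreated lines and 8 between treated lines.

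EIF2AK1, encoding HRI (ENSG00000086232, chr7:6022247-6059175, minus strand, GRCh38 as in the deposited counts), was the best-expressed kinase gene. Its level was 161.9 and 161.1 CPM in Empty without drug, 158.2 and 166.2 with it, 148.7 and 141.2 in NeuT without drug, and 140.6 and 133.2 with it. The 4 Empty libraries lay above all 4 NeuT libraries. Treated and untreated libraries overlapped in Empty but not in NeuT, where the treated ones lay lower. The log2 difference with JG-98 was 0.01 ± 0.06 (SE) in Empty and -0.08 ± 0.06 in NeuT, neither called (adjusted p 0.983 and 0.523, edgeR). NeuT was lower than Empty by a log2 difference of -0.16 ± 0.06 without drug (adjusted p 0.0333) and -0.25 ± 0.06 under JG-98 (adjusted p 0.00191). The untreated call passed in 12 of 17 alternatives. It was lost with no count filter (adjusted p 0.0516, edgeR) and on leaving out any of the 4 untreated libraries. The difference itself ran from -0.18 to -0.10 on leaving out 1 library, the weakest without untreated NeuT replicate 2. Of its exon bases 9.69% overlap AIMP2 on the opposite strand, and since strand use in counting is not stated, reads there cannot be assigned.

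EIF2AK2, encoding PKR (ENSG00000055332, chr2:37099210-37157065, minus strand), stood at 90.6 and 94.8 CPM in untreated Empty and 101.1 and 100.7 in treated Empty. In NeuT it was at 91.7 and 91.1 CPM without drug and 88.0 and 86.8 with it. Treated libraries lay above the untreated ones in Empty and below them in NeuT, by log2 differences of 0.12 ± 0.06 and -0.07 ± 0.06, and neither was called (adjusted p 0.483 and 0.634, edgeR). Under JG-98 NeuT was lower by -0.21 ± 0.06 (adjusted p 0.00615), a call that held in 17 of 17 alternatives. Without drug the difference was -0.02 ± 0.06. Exons of GPATCH11 and ARL14EPP1 on the opposite strand overlap 4.06% of its exon bases.

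EIF2AK3, encoding the ER kinase PERK (ENSG00000172071, chr2:88556740-88627464, minus strand), was the least expressed of the 4. It was at 11.9 and 10.6 CPM in Empty without drug, 10.9 and 10.4 with it, 10.4 and 11.3 in NeuT without drug, and 11.1 and 13.3 with it. The untreated and treated libraries overlapped in each line. It was called in none of the comparisons, and its interaction was 0.25 ± 0.16 (adjusted p 0.726, edgeR). Under JG-98, NeuT minus Empty was 0.20 ± 0.11 (adjusted p 0.166, edgeR). On leaving out 1 library this difference ran from 0.07 to 0.33, the highest without treated NeuT replicate 1. An opposite-strand gene, ENSG00000225420, overlaps 14.3% of its exon bases.

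EIF2AK4, encoding the amino acid sensor GCN2 (ENSG00000128829, chr15:39934115-40035591, plus strand), had 90.3 and 91.0 CPM in untreated Empty and 82.6 and 85.9 in treated Empty. NeuT libraries had 101.4 and 97.1 CPM without drug and 97.9 and 108.5 with it. All NeuT libraries lay above all Empty libraries. The difference between lines was 0.13 ± 0.06 without drug (adjusted p 0.103, past the threshold in 3 of 17 alternatives) and 0.29 ± 0.06 under JG-98 (adjusted p 0.00103, edgeR), the latter past the threshold in 17 of 17 alternatives. With JG-98 the log2 difference was -0.11 ± 0.06 in Empty and 0.06 ± 0.06 in NeuT, neither called.

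Per length of exon, HRI RNA was the largest part of the kinase RNA. EIF2AK1 ranged from 24.3 to 30.3 RPKM over the 8 libraries, EIF2AK2 from 8.07 to 9.40, EIF2AK4 from 6.89 to 9.05 and the group means of EIF2AK3 from 1.94 to 2.23. As a share of the 4 summed RPKM values, EIF2AK1 took 61.9% and 61.5% in Empty without drug, 61.2% and 62.2% with it, 58.9% and 58.0% in NeuT without drug, and 58.2% and 55.4% with it. Every NeuT library was below every Empty library. EIF2AK4 took means of 15.9%, 14.7%, 18.3% and 19.6% in the same order. A share falls when another member rises, so these are 1 pattern and not separate ones. The order of EIF2AK2 and EIF2AK4 depends on the length used. With all exons EIF2AK2 was above EIF2AK4 in every library but treated NeuT replicate 2. With the longest basic GENCODE transcript in place of all exons, EIF2AK4 took 24.0% to 30.9% as group means and EIF2AK2 took 14.3% to 15.7%, while EIF2AK1 stayed first at 50.5% to 56.8% (48.8% in treated NeuT replicate 2, the lowest library) and EIF2AK3 last.

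**Figure D3:**
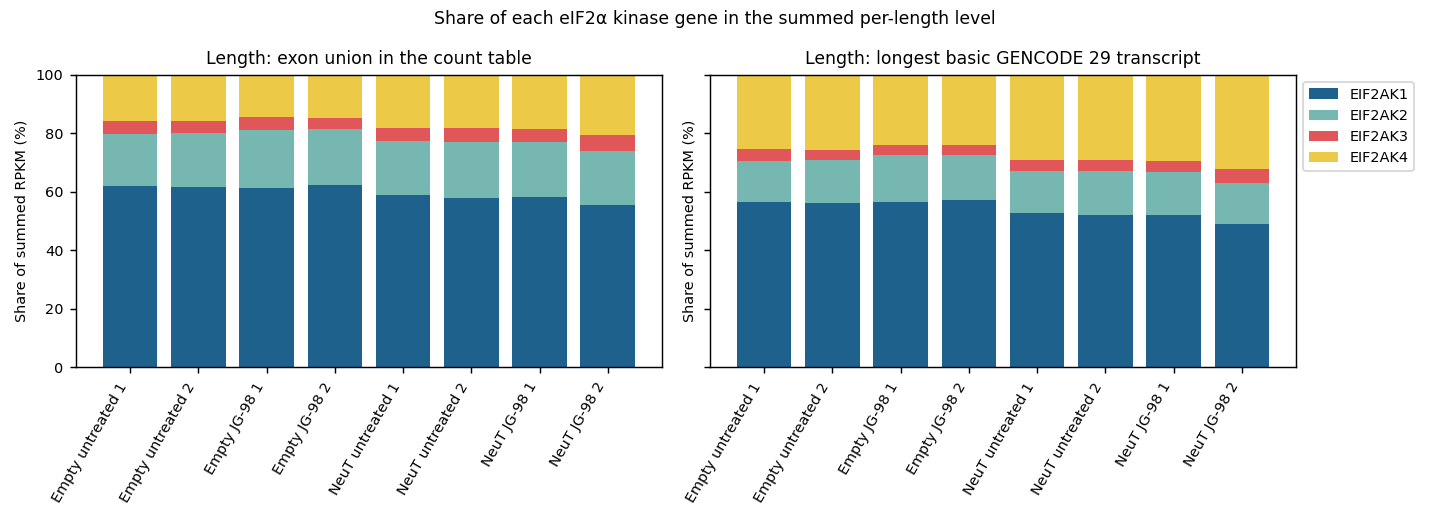
Share (%) of each kinase gene in the summed RPKM of all 4, per library, with all exons (left) or the longest basic transcript (right) as length. EIF2AK1 takes the largest share in every library under both lengths, and EIF2AK4 lies above EIF2AK2 in every library under the second.

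OMA1, the stress-activated protease of the inner mitochondrial membrane (ENSG00000162600, chr1:58415384-58546802, minus strand), differed most between the lines. It was at 12.5 and 13.5 CPM in untreated Empty and 13.3 and 13.8 in treated Empty. In NeuT it was at 6.87 and 6.63 CPM without drug and 8.23 and 6.98 with it. Every NeuT library was below every Empty library. NeuT was 1.93-fold lower without drug (log2 difference -0.95 ± 0.11, adjusted p 2.07e-06) and 1.78-fold lower under JG-98 (-0.83 ± 0.11, adjusted p 8.23e-06, edgeR). Both calls held in 17 of 17 alternatives. JG-98 itself gave 0.06 ± 0.10 in Empty and 0.17 ± 0.11 in NeuT, neither called. DAB1, on the same strand, shares 6.91% of its exon bases.

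DELE1, whose cleaved product carries the mitochondrial signal to HRI (ENSG00000081791, chr5:141923855-141942047, plus strand), lay the other way. It was at 49.9 and 48.6 CPM in Empty without drug, 47.1 and 50.7 with it, 54.7 and 54.6 in NeuT without drug, and 59.0 and 62.0 with it. Every NeuT library was above every Empty library. NeuT was higher by 0.30 ± 0.06 under JG-98 (adjusted p 0.00101, edgeR), which held in 17 of 17 alternatives. Without drug the difference was 0.15 ± 0.06 (adjusted p 0.0714), past the threshold in 3 of 17. With JG-98 in NeuT the log2 difference was 0.15 ± 0.06 (adjusted p 0.270). The RPKM ratio of OMA1 to DELE1 was 0.403 and 0.450 in Empty without drug, 0.456 and 0.438 with it, 0.203 and 0.196 in NeuT without drug, and 0.225 and 0.182 with it. With the longest basic transcript OMA1 is 1935 bases rather than 3718 and DELE1 4970 rather than 6000, so the ratio's size depends on length.

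Partners of this relay were described from a list of 8: the OMA1 substrate OPA1, the inner membrane proteases YME1L1 and AFG3L2, the prohibitins PHB1 and PHB2, the matrix protease LONP1, and UBR4 and KCMF1, which form a ubiquitin ligase that degrades activated DELE1 and HRI. With JG-98, 0 of 8 were called in either line. Between untreated lines 5 of 8 were called, all lower in NeuT, where 42.0% of all genes were called and 20.8% lower. The list median was -0.22 against -0.0156 over all genes. AFG3L2 was lower by -0.51 ± 0.06, OPA1 by -0.36 ± 0.05, LONP1 by -0.35 ± 0.07 and KCMF1 by -0.22 ± 0.06 (adjusted p 1.94e-06, 3.69e-05, 0.000756 and 0.00585). The KCMF1 call was lost without untreated Empty replicate 1 (0.0890) or untreated NeuT replicate 1 (0.134). Under JG-98, 5 of 8 were called lower, where 20.0% of all genes were, with a median of -0.22. Overlapping exons of other genes cover 12.6% of the exon bases of AFG3L2.

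PPP1R15B (CReP) targets the phosphatase PP1 to eIF2α in unstressed cells (ENSG00000158615, chr1:204403381-204411817, minus strand), and the window printed above comes from its promoter. Its level was 70.7 and 71.4 CPM in Empty without drug, 64.8 and 70.2 with it, 59.3 and 55.1 in NeuT without drug, and 56.9 and 61.8 with it. All NeuT libraries lay below all Empty libraries. The log2 difference with JG-98 was -0.07 ± 0.07 in Empty and 0.05 ± 0.07 in NeuT, neither called. NeuT was lower by -0.31 ± 0.07 without drug (adjusted p 0.00116) and -0.19 ± 0.07 under JG-98 (adjusted p 0.0339, edgeR). The second call passed in 10 of 17 alternatives, and its difference ran from -0.25 to -0.12 on leaving out 1 library. The first passed in 16 of 17 and just missed the threshold without untreated NeuT replicate 2.

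The inducible counterpart PPP1R15A (GADD34), a target of the ATF4 pathway and not one of the 10, was higher in NeuT, where PPP1R15B was lower. PPP1R15A was at 27.1 and 26.5 CPM in Empty without drug, 48.3 and 42.1 with it, 49.5 and 47.5 in NeuT without drug, and 79.9 and 121.2 with it. In the same order, the RPKM ratio of PPP1R15A to PPP1R15B was 0.658 and 0.635, then 1.28 and 1.03, then 1.43 and 1.48, then 2.41 and 3.37. With all exons as length, untreated Empty libraries had more of the constitutive subunit, and every other library had more of the inducible one. The longest basic transcript was not tried as length for this pair. For JG-98 the log2 difference of PPP1R15A was 0.75 ± 0.21 in Empty (adjusted p 0.318) and 1.05 ± 0.20 in NeuT (adjusted p 0.0645, edgeR), neither called. In Empty it passed in 4 of 17 alternatives (adjusted p 1.95e-08 to 0.854) and in NeuT in 6 of 17 (6.05e-13 to 0.307), among them the fits without either treated NeuT library in both lines and DESeq2 in NeuT (0.000209). Between lines PPP1R15A was higher in NeuT by 0.86 ± 0.21 without drug (adjusted p 0.0201, 0.0504 with replicate number as a block, and 0.0595 to 0.0845 without either untreated Empty library or untreated NeuT replicate 1) and 1.16 ± 0.20 under JG-98 (adjusted p 0.00565). In the list of 4 phosphatase partners 3 were called between untreated lines, against 42.0% of all genes. Beside PPP1R15A, the catalytic subunits PPP1CB (-0.34 ± 0.05) and PPP1CC (-0.25 ± 0.06) were called lower in untreated NeuT (adjusted p 4.09e-05 and 0.00232, the latter 0.0524 without untreated NeuT replicate 2), and JG-98 gave 0 calls of 4 in either line.

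**Figure D4:**
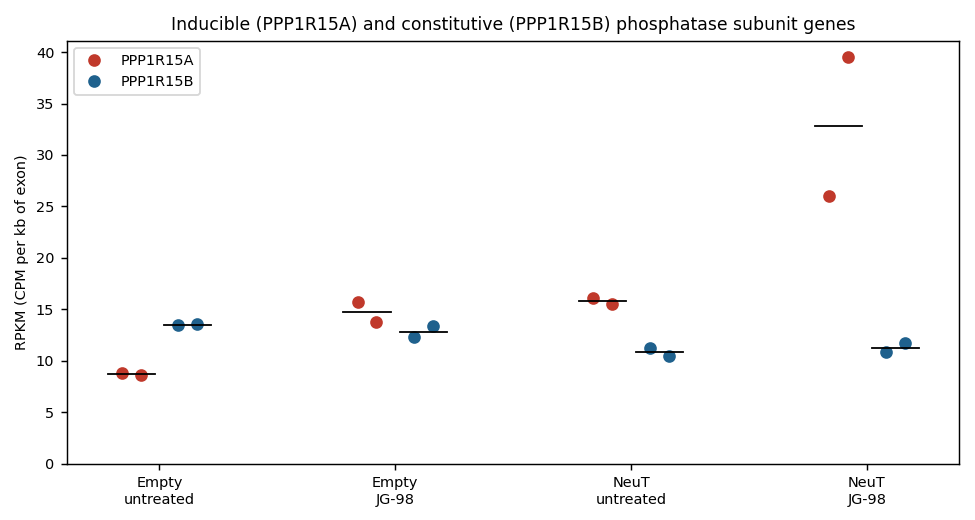
RPKM (CPM per kilobase of exon) of PPP1R15A and PPP1R15B in each library (points) with group means (lines), by line and treatment. The ratio of PPP1R15A to PPP1R15B runs from 0.635 to 0.658 in untreated Empty and from 2.41 to 3.37 in treated NeuT.

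GCN1, the ribosome-bound activator of GCN2 (ENSG00000089154, chr12:120127202-120194715, minus strand), had the highest counts of the 10. It was at 296.9 and 310.7 CPM in Empty without drug, 252.2 and 291.0 with it, 327.8 and 324.7 in NeuT without drug, and 296.5 and 341.1 with it. The untreated and treated libraries overlapped in NeuT but not in Empty, where the log2 difference was -0.16 ± 0.07 (adjusted p 0.477, edgeR). That drug difference ran from -0.27 to -0.06 on leaving out 1 library. NeuT was higher by 0.10 ± 0.07 without drug, not called except in the fit of the 4 untreated libraries (adjusted p 0.0117), and by 0.23 ± 0.07 under JG-98 (adjusted p 0.0181, edgeR). That call was lost with total counts (0.103), in the fit of the 4 treated libraries (0.0617), without treated Empty replicate 1 (0.229) and without treated NeuT replicate 2 (0.156), and passed in 13 of 17 alternatives (0.000337 to 0.229). The difference itself was 0.13 without either of those 2 libraries in turn, and 0.34 at the highest on leaving out 1 library.

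IMPACT, which competes with GCN2 for GCN1 and so restrains the kinase (ENSG00000154059, chr18:24426634-24453531, plus strand), was at 38.6 and 35.6 CPM in untreated Empty and 39.7 and 37.6 in treated Empty. NeuT libraries had 40.3 and 42.0 CPM without drug and 46.7 and 46.0 with it. Every NeuT library was above every Empty library. NeuT was higher by 0.15 ± 0.07 without drug (adjusted p 0.0937, past the threshold in 3 of 17 alternatives) and 0.26 ± 0.07 under JG-98 (adjusted p 0.00506, edgeR). The second call missed in 1 of 17 alternatives, at 0.0536 without treated Empty replicate 2. JG-98 gave 0.06 ± 0.07 in Empty and 0.17 ± 0.07 in NeuT, neither called.

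DNAJC3, an ER co-chaperone described as an inhibitor of PKR and PERK (ENSG00000102580, chr13:95677139-95794988, plus strand), was at 131.3 and 129.6 CPM in Empty without drug, 113.5 and 119.9 with it, 134.4 and 135.1 in NeuT without drug, and 121.0 and 134.5 with it. Treated Empty libraries were both below the untreated ones, by a log2 difference of -0.16 ± 0.06 (adjusted p 0.351, edgeR). It was not called between lines (0.05 ± 0.06 without drug and 0.13 ± 0.06 under JG-98), and the first of these values changed sign with total counts. The second ran from 0.05 to 0.21 on leaving out 1 library, and passed at 0.21 without treated NeuT replicate 1 (adjusted p 0.00349).

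Per length of exon, GCN1 and EIF2AK1 took the first 2 places in every library, but not in 1 order. With all exons EIF2AK1 was first in the treated Empty libraries and GCN1 in the others. With the longest basic transcript EIF2AK1 was first in all 4 Empty libraries and GCN1 in all 4 NeuT libraries. DNAJC3 and then PPP1R15B followed with all exons as length. GCN1 and EIF2AK1 were at 28.1 ± 2.84 and 29.5 ± 1.03 RPKM (SD, n = 2) in treated Empty, a difference within their spread, and at 33.8 ± 0.230 and 26.4 ± 0.973 in untreated NeuT, a difference beyond it. DELE1, EIF2AK2, IMPACT and EIF2AK4 formed a middle group between 6.89 and 10.3 RPKM whose order varied between libraries. OMA1 and EIF2AK3 were lowest, with EIF2AK3 last in all 4 Empty libraries and OMA1 last in the NeuT libraries other than treated replicate 1. With the longest basic transcript, EIF2AK4 ranked 4 in every library, above PPP1R15B at 5 or 7, and EIF2AK3 was last throughout.

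Regulators of the kinases outside the 10 came from a list of 9: the PKR regulators PRKRA, TARBP2 and ADAR, the PERK regulators HSPA5 and NCK1, and the chaperones HSPA8, HSP90AA1, HSP90AB1 and CDC37, with which HRI matures. With JG-98, 0 of 9 were called in either line. Between untreated lines 4 of 9 were called, a share close to the 42.0% of all genes. HSP90AA1 (-0.84 ± 0.05) and HSP90AB1 (-0.55 ± 0.05) were lower in NeuT, and CDC37 (0.36 ± 0.06) and NCK1 (0.36 ± 0.07) were higher (adjusted p 1.48e-09, 9.35e-08, 5.14e-05 and 0.000748). Under JG-98, 5 of 9 were called, 2 lower and 3 higher, where 41.7% of all genes were. Of 8 genes for the substrate eIF2 and its exchange factor eIF2B, 1 was called with JG-98 in Empty (0.339% of all genes were), EIF2S2, the β subunit of eIF2, at 0.29 ± 0.06 (adjusted p 0.0388). That call passed in 10 of 17 alternatives (adjusted p 0.000412 to 0.570) and was lost with limma-voom (0.0640), without robust estimation (0.0606) and on leaving out untreated Empty replicate 1 or 2, treated Empty replicate 1, or untreated NeuT replicate 1 or 2. In NeuT 0 of 8 were called (3.01% of all genes were), and EIF2S2 was at 0.19 ± 0.06 (adjusted p 0.0822, and 0.00908 without treated NeuT replicate 1). Between untreated lines 1 of 8 was called (42.0% of all genes were), EIF2B5, the catalytic subunit of eIF2B, lower in NeuT at -0.29 ± 0.06 (adjusted p 0.00142), and 2 of 8 were called lower under JG-98, near the 20.0% of all genes.

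Genes downstream of eIF2α phosphorylation did pass the test for a change with JG-98. The list held 15 such genes and was drawn up with earlier results of these libraries known, so its direction is not independent evidence. In Empty 5 of 15 were called higher and 0 lower, where 0.260% of all genes were higher and 0.0791% lower, with a median log2 change of 0.67 against -0.00334 over all genes. In NeuT 12 were called higher and 1 lower, where 2.01% of all genes were higher and 1.01% lower, with a median of 1.30 against 0.000213. The 1 lower gene, ATF5 (-0.30 ± 0.07), and the 2 not called, CEBPB and DDIT4, are named after their values were seen. Other genes overlap 22.1% of the exon bases of ATF5, 11.8% of those of CEBPB and 41.2% of those of DDIT4. ATF4 was at 248.5 and 236.6 CPM in Empty without drug, 356.0 and 334.1 with it, 109.7 and 110.8 in NeuT without drug, and 248.6 and 310.5 with it. ATF4 rose by 0.51 ± 0.08 in Empty (adjusted p 0.0157) and by 1.34 ± 0.08 in NeuT (adjusted p 1.67e-06), and NeuT started lower, by -1.14 ± 0.08. In neither line did treated and untreated libraries overlap.

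DDIT3, encoding the transcription factor CHOP, was at 1.80 and 1.79 CPM in Empty without drug, 4.62 and 4.42 with it, 2.32 and 2.17 in NeuT without drug, and 11.4 and 15.8 with it. DDIT3 rose by 1.33 ± 0.18 in Empty (adjusted p 0.00156) and by 2.60 ± 0.16 in NeuT (adjusted p 1.58e-07). Other genes overlap 39.6% of its exon bases. PSAT1, an enzyme of serine synthesis, rose by 0.58 ± 0.07 and 0.99 ± 0.07 (adjusted p 0.000914 and 1.27e-06), and NUPR1, a stress-induced chromatin protein, by 1.17 ± 0.15 and 2.62 ± 0.15 (adjusted p 0.0101 and 1.31e-05). In Empty the ATF4 call was lost on leaving out any of the 4 Empty libraries (adjusted p 0.0773 to 0.372), the NUPR1 call on leaving out either untreated Empty library or treated Empty replicate 1 (0.135 to 0.164), and the DDIT3 and PSAT1 calls without treated Empty replicate 1 (0.0526 and 0.0546). For the difference between the 2 responses 0 of 15 were called (0.00565% of all genes were). At an unadjusted p under 0.05 there were 7, but the share of all genes at that looser cut-off was not computed. The interaction of ATF4 was 0.83 ± 0.12 (adjusted p 0.0579), past the threshold in 6 of 16 alternatives (3.14e-19 to 0.418), among them the fits without either treated NeuT library. The interactions of NUPR1, DDIT3 and PSAT1 were 1.45, 1.27 and 0.41 (adjusted p 0.122, 0.152 and 0.350), and passed in 5, 3 and 2 of 16 alternatives, in each case also without treated NeuT replicate 1 (2.68e-08, 0.000332 and 0.000265).

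**Figure D5:**
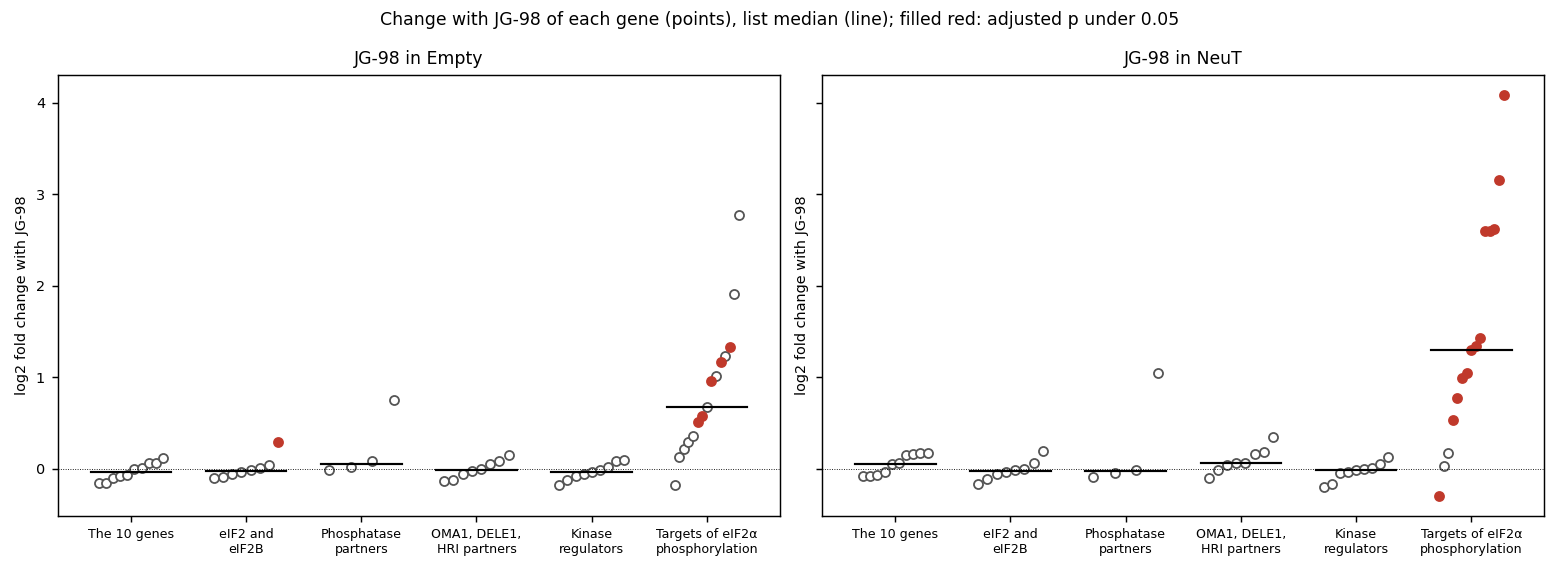
Log2 fold change with JG-98 of each gene (points) in the 10 genes and the lists around them, with the list median (line), for Empty and NeuT. Filled red points passed an adjusted p under 0.05. The 10 genes stay between -0.16 and 0.17 in both lines, whereas the 15 downstream genes have medians of 0.67 in Empty and 1.30 in NeuT.

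Genes whose pattern over the 8 libraries was most like that of EIF2AK1 and OMA1 were sought among 13115 genes averaging 50 or more counts, by the root mean square difference of log2 CPM after centring each gene on its own mean. For EIF2AK1 the 3 nearest were GLO1 (0.0205), DDOST (0.0215) and PMPCB (0.0269). For OMA1, the gene with the widest spread of group means at 1.00 log2 units, they were SORT1 (0.0587), CEP70 (0.0596) and FRAT2 (0.0647). These are descriptions over 8 libraries that share the same groups.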

How the data were processed

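The authors deposited raw counts per gene for 8 libraries in the layout of featureCounts, per the file headers. The submitters' processing notes name Trim Galore 0.5.0, FastQC 0.11.7, HISAT2 2.1.0, SAMtools 1.9, featureCounts 1.6.3, limma and the build hg38 or GRCh38. The annotation release, strand setting and handling of multi-mapped reads are not given in the sources used here. The authors also deposited, per the file headers, 1 table per line with log2 fold changes, p-values, adjusted p-values and test scores for treated against untreated cells. Samples were grouped by their titles, and 0 value columns matched no sample. Symbols were found for 60261 of 60617 identifiers.

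Counts were fitted with edgeR 4.0.16 in R 4.3.3: genes kept by filterByExpr (minimum count 10, total 15), TMM scaling, a robust quasi-likelihood fit over all 8 libraries with 1 mean per group, and Benjamini-Hochberg adjustment over the 17693 genes tested. A gene is called at an adjusted p under 0.05. The ± values of log2 differences are standard errors. The exon lengths behind RPKM are the deposited ones, or the longest basic transcript of GENCODE 29. Exon overlaps came from the deposited exon coordinates. Exact permutation of 2 against 2 libraries cannot reach 0.05 for a single gene, so the tests rest on the dispersion shared across groups and genes. Alternatives were RLE or total-count scaling, other count filters, DESeq2 1.42.0, limma-voom 3.58.1, a non-robust fit, a replicate block, only the 4 libraries compared, and each library left out. A threshold of 0.01 was also tried, and is not among the 17 alternatives (16 for the interaction) counted for single genes. The scripts were tested on simulated data.

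The 10 genes are named whatever their values. From each list of pathway genes, up to 4 with the smallest p in a contrast were named, and for likeness the 3 nearest genes. The genes and lists were chosen with earlier results of these data known. Replicates of a group differed by more than counting noise (chi-square per gene 4.52 to 8.20, and 22.1 in treated NeuT), so each library counted once. A count of 0 allows up to 3 counts, or 0.0528 to 0.0803 CPM, for counting error only, since PCR copies were not marked by molecular identifiers.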

Additional observations from a re-analysis of the deposited data

How the results depend on the processing

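JG-98 called 0 of the 10 genes in Empty, in NeuT and in the interaction under all alternatives. Between untreated lines the count was 3, and it ran from 1 (without untreated NeuT replicate 2) to 6 (without either treated NeuT library) on leaving out 1 library, and was 7 when only the 4 libraries compared were fitted. Under JG-98 it ran from 6 to 9. It is not stated whether replicate numbers pair the libraries. Deviations from group means correlated at -0.101 to 0.244 between groups over 9551 genes. The highest value was between treated Empty and treated NeuT, and the lowest between untreated and treated NeuT. With the replicate block, 0, 0, 0, 3 and 8 of the 10 genes were called (JG-98 in Empty, in NeuT, the interaction, untreated lines and treated lines), and 66, 593, 1, 7497 and 7451 of all genes. Pairing the NeuT libraries crosswise, chosen after seeing the data, called 943 genes and 0 of the 10.

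Some differences that were not called in the main fit changed sign on leaving out 1 library, over these ranges. With JG-98 in Empty they were EIF2AK1 (-0.0311 to 0.0411), EIF2AK3 (-0.170 to 0.00351), DELE1 (-0.0661 to 0.0428), OMA1 (-0.000561 to 0.120) and IMPACT (-0.000217 to 0.116). With JG-98 in NeuT they were EIF2AK4 (-0.0274 to 0.126), PPP1R15B (-0.0154 to 0.109) and GCN1 (-0.146 to 0.0621). In the interaction they were OMA1 (-0.0184 to 0.215), DNAJC3 (-0.00809 to 0.150) and PPP1R15A (-0.0450 to 0.563), and between untreated lines EIF2AK2 (-0.0516 to 0.0108) and EIF2AK3 (-0.134 to 0.0402). With total counts DNAJC3 was at -0.0218 between untreated lines. The cause was not tested.

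Of all genes, 60 were called with JG-98 in Empty, 533 in NeuT and 1 in the interaction. These counts became 282, 1000 and 138 with no filter, 151, 722 and 26 with DESeq2, 205 and 185 in fits of the 4 libraries compared, and 19, 200 and 1 at a threshold of 0.01. Leaving out 1 library gave 9 to 417 in Empty, 132 to 2133 in NeuT and 1 to 777 in the interaction, the highest each time without treated NeuT replicate 1. The 2 libraries per group limit all tests here.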
